A study of Mus musculus with 31 samples.

Results

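The 9 growth factor genes Igf1, Csf1, Il34, Spp1, Hbegf, Vegfa, Vegfb, Pdgfb and Bdnf were followed, out of 55401 genes in the count tables, in CD11b+ microglia and cortex of 13-month-old mice with or without APP/PS1 transgenes and the PLCG2 P522R knock-in. The members were chosen by name with earlier results in view: Igf1, Csf1, Spp1 and Hbegf were selected on their higher CPM in the female CD11b+ libraries of transgenic mice, and the others as growth factors to set beside them. Their levels in the comparisons with non-transgenic females are therefore a description with no test.

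The study asked how the P522R variant of phospholipase C gamma 2, a signalling enzyme downstream of microglial surface receptors, changes microglia and brain tissue in a model of β-amyloid deposition. All mice were on the C57Bl/6J background, and the P522R change had been placed in the mouse gene by CRISPR/Cas9. A+ mice carried the APPswe/PS1dE9 transgenes, whereas A- mice did not. The prion promoter of the mouse drives both transgenes, one for Swedish-mutant APP (APP695, part mouse and part human sequence) and the other for human presenilin 1 without its exon 9. CD11b+ cells were taken from whole perfused brain with magnetic beads, and cortex was a homogenate of the temporo-occipital part.

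The 31 libraries were oligo(dT) mRNA libraries of 1 mouse each. Female CD11b+ libraries came from 7 A-/Pwt/wt mice (no transgene, wild-type PLCG2), 4 A+/Pwt/wt mice (transgenes, wild-type PLCG2) and 4 A+/Pki/ki mice (transgenes, homozygous knock-in). Male CD11b+ libraries came from 3 WT and 4 homozygous KI mice, none of which carried the transgenes. Cortex libraries came from 4 A+/Pwt/wt, 4 A+/Pki/ki and 1 A-/Pwt/wt female. Total counts per library were 16229831 to 19946001 in male CD11b+ cells, 18918255 to 25118180 in female CD11b+ cells and 25226544 to 43129427 in cortex. Column names gave the female A+ CD11b+ libraries 1 tag, the female A- libraries another and the male libraries a further one, with no word on what the tag stands for, so the transgenes, or the sex, and whatever the tag marks cannot be told apart. Mouse number 236 stood on an A-/Pwt/wt CD11b+ library and on an A+/Pwt/wt cortex library. Levels are CPM, a gene's counts relative to the library total, scaled by TMM within each of the 3 count tables, so levels set side by side across males, females and cortex were scaled separately.

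Growth factors are secreted or membrane-shed proteins that act through receptors on the same or neighbouring cells. CSF1 and IL34 both bind CSF1R, the receptor on which microglial survival depends, and in the brain IL34 is made mainly by neurons. IGF1 and osteopontin, the product of Spp1, are known from microglia of developing white matter and from microglia around amyloid plaques. HB-EGF activates EGFR and ERBB4 after it is shed from the membrane, VEGF-A and VEGF-B act on endothelial receptors, PDGF-BB recruits pericytes through PDGFRB, and BDNF supports neurons through TRKB.

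Of the genes that separated A+ from A- CD11b+ cells, 3 had a promoter window in the RefSeq table for GRCm38.p6, which runs from 250 bases before to 50 bases after an annotated start. The windows are shown because they lie at the start of genes that were higher in every A+ CD11b+ library than in every A- one. Capitals mark GAGGAA, a core of sites for PU.1, the factor that defines the macrophage lineage. This motif was searched on both strands and was found in 28.3% of all 32851 windows. The Igf1 window (chr10:87860861-87861160, + strand) held 1 match starting 60 bases before the start. The Csf1 window (chr3:107760420-107760719, - strand) held none, and the Spp1 window (chr5:104434861-104435160, + strand) held 1 starting 113 bases before the start. None of these windows held the AP-1 letters TGACTCA or TGAGTCA, present in 5.2% of windows, or the E-box CACGTG, present in 7.2%.
Igf1: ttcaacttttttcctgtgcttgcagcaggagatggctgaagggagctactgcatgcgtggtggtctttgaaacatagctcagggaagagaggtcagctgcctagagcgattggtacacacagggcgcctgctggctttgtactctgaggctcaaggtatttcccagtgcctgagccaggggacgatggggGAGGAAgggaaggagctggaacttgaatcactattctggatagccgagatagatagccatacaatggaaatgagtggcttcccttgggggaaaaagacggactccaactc
Csf1: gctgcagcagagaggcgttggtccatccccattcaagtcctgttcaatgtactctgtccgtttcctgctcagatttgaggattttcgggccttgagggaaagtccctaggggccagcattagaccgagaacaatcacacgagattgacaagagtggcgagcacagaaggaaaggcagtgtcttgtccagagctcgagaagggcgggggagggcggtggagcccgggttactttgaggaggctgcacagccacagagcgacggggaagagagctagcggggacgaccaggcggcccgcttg
Spp1: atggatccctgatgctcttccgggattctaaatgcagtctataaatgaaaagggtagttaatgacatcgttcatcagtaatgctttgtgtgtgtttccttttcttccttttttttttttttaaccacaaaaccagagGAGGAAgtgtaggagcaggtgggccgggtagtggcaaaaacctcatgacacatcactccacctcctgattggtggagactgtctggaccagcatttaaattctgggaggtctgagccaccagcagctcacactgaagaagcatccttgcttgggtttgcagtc

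A second Spp1 window further downstream held none of the motifs. Of the other members, Vegfa had GAGGAA in 1 of 2 windows and Bdnf in 4 of 7, whereas the Vegfb window had no match to any of the motifs. In Gencode M21 (GRCm38), Igf1 spans chr10:87858265-87937042 on the + strand with 9904 exonic bases, Csf1 spans chr3:107741048-107760469 on the - strand with 5281 and Spp1 spans chr5:104435118-104441050 on the + strand with 1648. The Igf1 window lies inside that gene span. Of the exonic bases of Spp1, 18.8% are shared with the unclassified transcript Gm42793 on the same strand, so a read there could have been assigned to either or to none.

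All 10 microglia markers were detected in every CD11b+ library, with a summed level of 10680 to 24760 CPM against 380.3 to 819.9 CPM in cortex, and Csf1r was the most abundant of them in each CD11b+ library. Microglial transcripts were thus enriched over cortex, but so were those of oligodendrocytes. The 9 oligodendrocyte markers, led by Mbp, summed to 6659 to 72560 CPM in the CD11b+ libraries and 3830 to 6569 CPM in cortex, so that every CD11b+ library was above every cortex library. Female A- mouse 223 had 72560 CPM of oligodendrocyte and 10680 CPM of microglia markers, and A+/Pki/ki mouse 335 had 64560 and 13050 CPM, sums that are not per length. Each CD11b+ level given here is that of the whole library. The 12 neuron markers, led by Camk2a, summed to 193.3 to 4816 CPM in the CD11b+ libraries and 12440 to 14060 CPM in cortex. In such bulk samples, fewer cells of a type and less RNA per cell cannot be told apart.

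Mapped App counts gave a check of the transgene in cortex, where the A- library stood at 1913 CPM and the A+ libraries at 3255 to 3931 CPM. In CD11b+ cells App did not separate the genotypes, with 610.7 to 952.2 CPM in A-/Pwt/wt, 662.9 to 1072 CPM in A+/Pwt/wt and 504.8 to 959.6 CPM in A+/Pki/ki mice. Plcg2, which the knock-in changes by a point mutation and whose level therefore checks no label, was at 242.2 to 245.9 CPM in male WT and 168.1 to 222.3 CPM in male KI microglia (log2 fold change -0.36, SE 0.11, adjusted p = 0.0581).

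**Figure D1:**
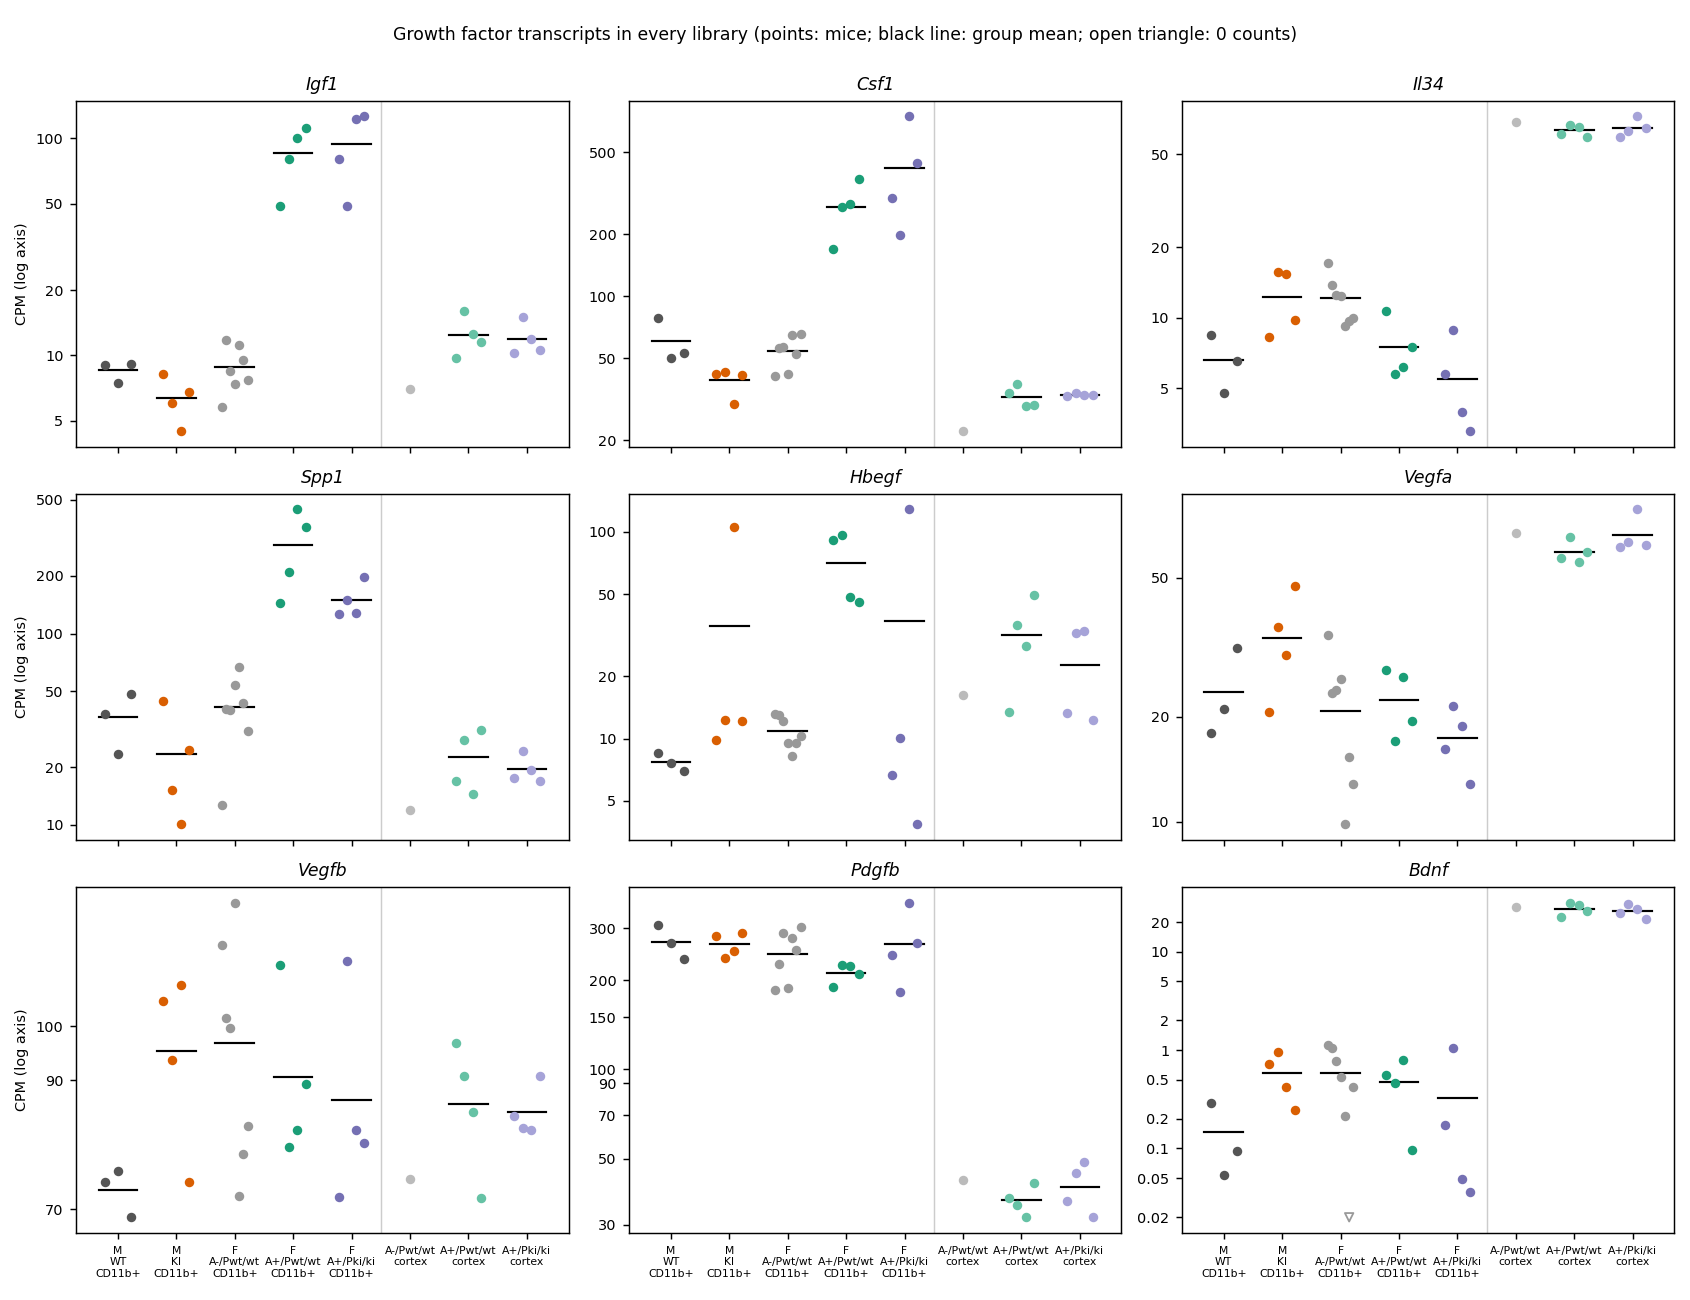
CPM of each gene (vertical log axes) in every library, by group (horizontal axis), with 1 point per mouse, a black line at the group mean and an open triangle for the 1 library with 0 counts of Bdnf. Igf1, Csf1 and Spp1 were higher in every A+ CD11b+ library than in every A- female CD11b+ library, whereas Il34, Vegfa and Bdnf were highest in cortex.

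Igf1, the ligand of the IGF1 receptor, was at 5.79, 7.39, 7.71, 8.50, 9.50, 11.2 and 11.7 CPM in the 7 female A-/Pwt/wt CD11b+ libraries. The A+/Pwt/wt libraries held 48.6, 80.4, 100.5 and 111.3 CPM, and the A+/Pki/ki libraries 48.6, 80.1, 122.4 and 126.2 CPM. Every A+ library was above every A- library, and the lowest A+ value was 4.14 times the highest A- value. The means were 8.83 ± 2.13 (SD, n = 7), 85.2 ± 27.5 (n = 4) and 94.3 ± 37.0 (n = 4) CPM, a ratio to A- of 9.65 in A+/Pwt/wt and 10.7 in A+/Pki/ki mice. These ratios share the A- libraries.

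Csf1 was at 41.0 to 65.9 CPM in the A- libraries, with a median of 56.4. It was at 168.7, 269.8, 280.2 and 369.3 CPM in A+/Pwt/wt and at 197.3, 298.9, 441.2 and 745.7 CPM in A+/Pki/ki microglia. Again no A+ library reached down to an A- library. The fitted log2 fold changes against A- were 2.33 (SE 0.20) and 3.01 (SE 0.30). The A+/Pki/ki library of mouse 394 held the highest Csf1 value of all CD11b+ libraries.

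Spp1 was at 12.7 to 67.2 CPM in the A- libraries (median 40.3). The A+/Pwt/wt libraries stood at 144.6, 209.9, 360.1 and 445.6 CPM and the A+/Pki/ki libraries at 125.9, 128.7, 149.1 and 197.7 CPM. Both A+ groups lay above the A- group, by 7.04-fold and 3.65-fold in the means, and they overlapped each other. The A- library of mouse 223 was the lowest for Spp1 and Igf1 and also had the lowest microglia marker sum (10680 CPM) and the highest neuron marker sum (4816 CPM) of the female CD11b+ libraries.

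Hbegf (chr18:36504927-36515805, - strand in Gencode M21) varied widely between mice of the same genotype. The A- libraries ran narrowly from 8.23 to 13.2 CPM. The A+/Pwt/wt libraries were at 45.6, 48.4, 91.0 and 96.7 CPM, all above A-. Among A+/Pki/ki mice the level was 128.3 CPM in mouse 394 but 10.1 CPM in mouse 335, 6.67 CPM in mouse 244 and 3.86 CPM in mouse 405. Only 1 of the 4 A+/Pki/ki libraries was thus above the A- range, and the fitted log2 fold change of 1.84 (SE 0.74) against A- turned to -0.64 without mouse 394. Igf1, Csf1 and Spp1 were above the A- range in the same 3 libraries in which Hbegf was not.

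**Figure D2:**
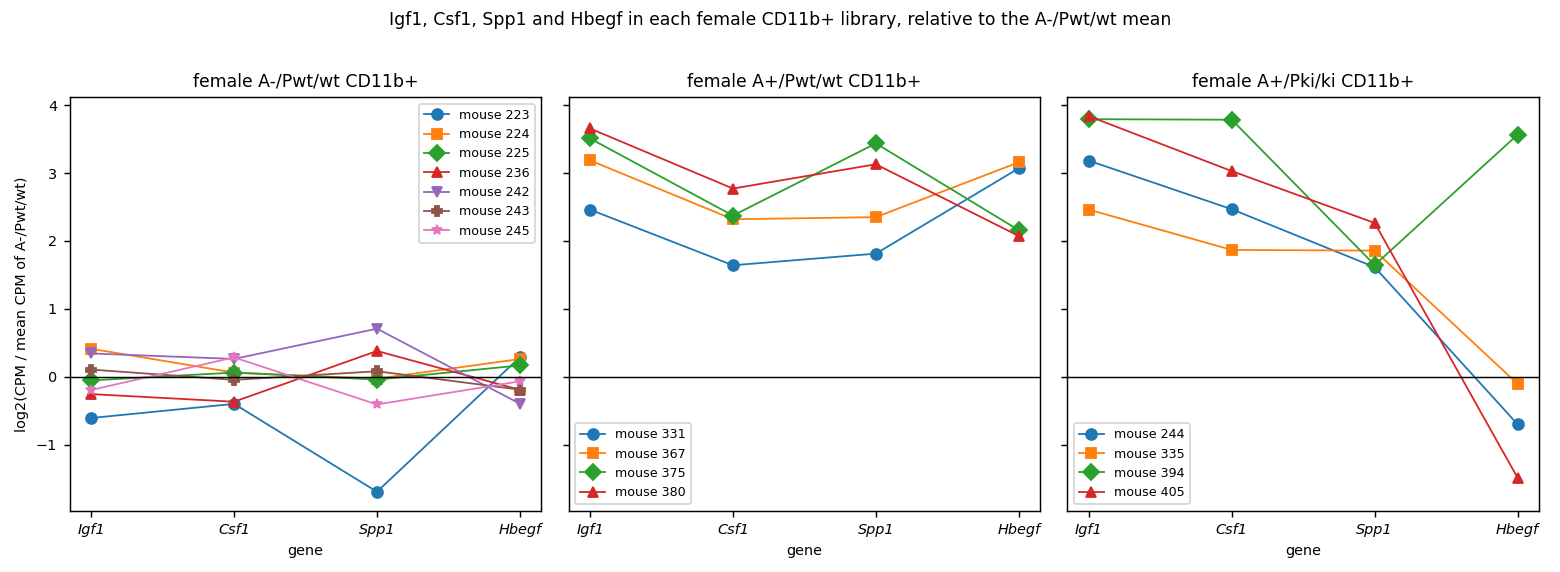
Log2 ratio of CPM to the A-/Pwt/wt mean (vertical axis) for Igf1, Csf1, Spp1 and Hbegf (horizontal axis) in each female CD11b+ library, with 1 line per mouse and 1 panel per genotype. In A+/Pwt/wt mice all 4 genes lie above 0, whereas in A+/Pki/ki mice Hbegf lies above 0 only in mouse 394 (128.3 CPM).

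Across all genes tested, 2.02% had every A+/Pwt/wt library above every A- library and 1.2% had every one below. For A+/Pki/ki against A- these shares were 2.5% and 1.22%. Of the 9 members, 4 lay wholly above in A+/Pwt/wt (Igf1, Csf1, Spp1 and Hbegf) and none wholly below, and in A+/Pki/ki 3 lay wholly above (Igf1, Csf1 and Spp1) and 1 wholly below (Il34). Since the members were selected on this contrast, nothing is read from these counts. In the fits across all genes, 1.29% of 17355 genes were called at an adjusted p of 0.05 in A+/Pwt/wt against A- (1.01% higher and 0.282% lower). For A+/Pki/ki against A-, 1.64% of 17446 genes were called (1.35% higher and 0.287% lower).

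Il34, the other ligand of CSF1R, did not follow Csf1. It was at 9.24 to 17.1 CPM in A- (median 12.4), at 5.77, 6.18, 7.52 and 10.7 CPM in A+/Pwt/wt and at 3.29, 3.95, 5.75 and 8.88 CPM in A+/Pki/ki microglia. The A+/Pwt/wt group overlapped the A- group, and the A+/Pki/ki group lay below it (log2 fold change -1.12, SE 0.27). Within the A+/Pki/ki group, Il34 and the neuron marker sum had the same order of mice, from mouse 405 (193.3 CPM of neuron markers) over 394 (322.1) and 244 (604.5) to 335 (2400 CPM). This was not so in the A+/Pwt/wt group, where mouse 375 had Il34 at 6.18 CPM with 1885 CPM of neuron markers and mouse 380 had 7.52 CPM with 1524 CPM. In the A- group, mouse 223 was highest in Il34 (17.1 CPM) and in neuron markers (4816 CPM). Mouse 242 was lowest in both (9.24 and 417.6 CPM), and the order of the other A- mice differed. The A+/Pwt/wt group had a lower median of Il34 than A- (6.85 against 12.4 CPM) and a higher median neuron marker sum (1702 against 900.5 CPM). The median oligodendrocyte marker sum was 36150 CPM in A-, 41420 CPM in A+/Pwt/wt and 17060 CPM in A+/Pki/ki libraries. The part of neuronal or oligodendrocyte RNA in the Il34 level was not tested. The gene spans chr8:110741829-110805924 on the - strand, and the antisense genes Gm15894 and Gm15895 cover 1.1% and 3.8% of its exonic bases, from which reads cannot be told apart in an unstranded count.

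The remaining members overlapped between the genotypes in the female CD11b+ libraries. Vegfa was at 9.84 to 34.2 CPM in A-, 17.1 to 27.1 CPM in A+/Pwt/wt and 12.8 to 21.4 CPM in A+/Pki/ki. Vegfb was at 71.8 to 127.2, 79.0 to 112.6 and 71.7 to 113.6 CPM in the same groups. Pdgfb was at 185.0 to 302.4, 189.8 to 225.6 and 182.6 to 365.5 CPM. The highest Pdgfb value again belonged to mouse 394. Bdnf was barely present, with 0 to 22 counts per library and at most 1.13 CPM. Against A-, the fitted log2 fold changes of these 4 genes were between -0.83 and 0.15, the lowest being that of Bdnf in A+/Pki/ki, which was -2.68 without mouse 335.

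Per kb of exon, the order of the genes differed between the female CD11b+ groups. Igf1, Csf1, Spp1 and Hbegf were selected on higher CPM in the A+ groups, so nothing is read from this change of order. In A- females the mean levels were 60.3 CPM per kb for Vegfb, 59.2 for Pdgfb, 25.0 for Spp1, 10.2 for Csf1, 6.18 for Il34, 4.84 for Vegfa, 2.24 for Hbegf, 0.892 for Igf1 and 0.095 for Bdnf. Vegfb and Pdgfb did not differ beyond their SDs of 12.9 and 11.4, nor did Il34 and Vegfa beyond theirs of 1.42 and 1.98. Among A+/Pwt/wt females, Spp1 came first at 176.0 ± 83.4 (SD, n = 4). Vegfb, Csf1 and Pdgfb followed at 56.5, 51.5 and 51.0, which lay within the SD of Csf1 of 15.5. Hbegf was at 14.6, Igf1 at 8.60, Vegfa at 5.22 and Il34 at 3.85. Among A+/Pki/ki females, Spp1 was at 91.2 ± 20.2, Csf1 at 79.7 ± 45.2, Pdgfb at 63.6 ± 18.3 and Vegfb at 54.0 ± 11.5 CPM per kb. Spp1, Pdgfb and Vegfb lay within the SD of Csf1 from its mean. Igf1 was at 9.53 ± 3.73 (4.91 to 12.7) and Hbegf at 7.70 ± 12.6. The Hbegf mean rested on mouse 394, at 26.55 CPM per kb. The other mice of the group had Hbegf at 0.799 to 2.08, below every Igf1 value.

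The question of the knock-in in transgenic females was addressed by comparing A+/Pki/ki with A+/Pwt/wt CD11b+ cells. In edgeR's quasi-likelihood test no member was called, and neither was any other of the 17039 genes (0.0%). At an unadjusted p under 0.05 there were 575 genes, and DESeq2 called 7, none of them a member. The member nearest to a difference was Spp1, at 150.3 ± 33.2 CPM in A+/Pki/ki and 290.0 ± 137.4 CPM in A+/Pwt/wt mice (log2 fold change -0.95, SE 0.35, adjusted p = 0.853). Of the 4 A+/Pki/ki libraries, 2 lay below all A+/Pwt/wt libraries, and the groups overlapped. Csf1 had a log2 fold change of 0.63 (SE 0.41), Il34 of -0.46 (SE 0.34) and Hbegf of -0.90 (SE 1.04). Without mouse 394 that of Hbegf was -3.37, and without any 1 library it ran from -3.37 to -0.52, with no call. For Igf1 it was 0.15 (SE 0.35). Without any 1 library the value ran from 0.19 (without mouse 394) to 0.90 (without 335) for Csf1, from -0.78 (without 335) to -0.25 (without 331) for Il34 and from -0.05 (without 331) to 0.39 (without 335) for Igf1, so that the sign of Igf1 was not fixed. Adjusted p-values of the 9 members ran from 0.853 to 0.917.

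The cortex gave the same comparison in tissue. Again 0 of 18640 genes were called by edgeR (0.0%), with 514 at an unadjusted p under 0.05 and 11 called by DESeq2, none of them a member. Igf1 was at 9.70, 11.5, 12.6 and 15.95 CPM in A+/Pwt/wt and 10.3, 10.6, 11.9 and 15.1 CPM in A+/Pki/ki cortex. Csf1 was at 29.3 to 37.4 and at 32.7 to 33.8 CPM, a log2 fold change of 0.02 (SE 0.085). Hbegf was at 13.5, 28.2, 35.3 and 49.4 CPM in A+/Pwt/wt and 12.3, 13.3, 32.3 and 33.1 CPM in A+/Pki/ki cortex. All 9 members overlapped between the genotypes, with log2 fold changes from -0.48 (Hbegf) to 0.16 (Vegfa).

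The single A- cortex library allowed values side by side but no test. Igf1 was at 7.05 CPM there, Csf1 at 22.2 and Spp1 at 11.9 CPM, each below all 8 A+ cortex libraries, as were 14.5% of 18810 genes in that library. No member was above all 8, as were 13.9% of genes. The mean ratios of A+/Pwt/wt to this library were 1.77 for Igf1, 1.47 for Csf1 and 1.90 for Spp1. The microglia marker sum was 380.3 CPM in that library and 639.6 to 819.9 CPM in the A+ cortex libraries, and its part in these ratios was not tested. Hbegf, at 16.2 CPM, lay within the A+ range.

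The tissues differed in which factors they held, on separately scaled levels. In A+/Pwt/wt mice the CD11b+ mean was 12.8 times the cortex mean for Spp1, 8.35 times for Csf1, 6.85 times for Igf1 and 5.85 times for Pdgfb, with no overlap of the libraries, as for 28.2% of 18541 genes. Spp1, Csf1 and Igf1 had been selected on higher CPM in A+ CD11b+ libraries, so their ratios are only a description. The endothelial and mural marker sum was 991.5 to 2029 CPM in the A+/Pwt/wt CD11b+ libraries and 204.9 to 290.0 CPM in A+/Pwt/wt cortex. Its part in the Pdgfb ratio was not tested. Cortex was higher for Il34 (63.1 against 7.54 CPM), Vegfa (59.2 against 22.4 CPM) and Bdnf (27.4 against 0.477 CPM), again with no overlap, as for 46.0% of genes. Separation of a member between the tissues was thus common among all genes. Vegfb was at 85.9 CPM in cortex and 90.6 CPM in CD11b+ cells. Set beside the single A- cortex library, the A- CD11b+ mean was only 1.25 times as high for Igf1, with overlap. It was 2.435 times as high for Csf1, 3.46 times for Spp1 and 5.79 times for Pdgfb, without overlap. For Hbegf it was 0.67 times the cortex level, and every A- CD11b+ library lay below that cortex library, as for Il34, Vegfa and Bdnf. Per kb, the cortex of A+/Pwt/wt mice held most Vegfb (53.5), followed by Il34 (32.2), Vegfa (13.8) and Spp1 (13.7). Vegfa and Spp1 did not differ beyond the SD of Spp1 of 4.95, and Igf1 was lowest at 1.26. Bdnf (chr2:109674700-109727007, + strand) shares 14.4% of its exonic bases with the antisense gene Gm45346.

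The knock-in without transgenes was compared in males, KI against WT. Of the 8 members that passed the low-count filter, Csf1 was lower in KI microglia and none was called higher, against 5.26% of all 16373 genes lower and 11.1% higher (16.4% in all). Csf1 was at 50.3, 53.2 and 78.4 CPM in WT and 30.1, 41.5, 42.1 and 42.7 CPM in KI microglia. Every KI library lay below every WT library, which was so for 15.4% of all genes, and Csf1 was the only member for which it was. The log2 fold change was -0.67 (SE 0.17, adjusted p = 0.0293). The call was lost without any 1 of the WT mice 101, 102 and 94 or the KI mice 84 and 139, when the adjusted p was between 0.0606 and 0.164 and the log2 fold change between -0.76 and -0.41.

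Hbegf was the only member with every male KI library above every WT library, as was so for 15.4% of genes. It was at 6.94, 7.66 and 8.54 CPM in WT and at 9.83, 12.1, 12.3 and 105.4 CPM in KI microglia. The fitted log2 fold change of 2.17 (SE 0.86) was not called (adjusted p = 0.112), although it was called without the low-count filter (adjusted p = 0.000445). Without KI mouse 139 it was 0.52 (adjusted p = 0.108), and without KI mouse 104 it was 2.48 (adjusted p = 0.0413). KI mouse 139 gave the high Hbegf value and also the lowest Csf1 (30.1 CPM), Igf1 (4.495 CPM) and Spp1 (10.1 CPM) values of the males.

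The other members were not called in males. Igf1 was at 7.50, 9.07 and 9.12 CPM in WT and 4.495, 6.06, 6.77 and 8.18 CPM in KI microglia (log2 fold change -0.47, SE 0.20, adjusted p = 0.137). Spp1 was at 23.5, 38.1 and 48.2 CPM in WT and 10.1, 15.2, 24.5 and 44.5 CPM in KI microglia (adjusted p = 0.287). Il34 was at 4.79, 6.51 and 8.49 CPM in WT and 8.24, 9.75, 15.4 and 15.6 CPM in KI microglia (log2 fold change 0.87, SE 0.29, adjusted p = 0.0721). DESeq2 called Il34 higher (adjusted p = 0.0261). Vegfa had a log2 fold change of 0.47 (SE 0.28), Vegfb of 0.35 (SE 0.14) and Pdgfb of -0.07 (SE 0.11). Bdnf, at 1 to 15 counts, was not tested. Without KI mouse 104, 6 members were called, Igf1, Csf1 and Spp1 lower and Il34, Hbegf and Vegfa higher, but in that fit 13.3% of all 16242 genes were called lower and 20.2% higher.

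**Figure D3:**
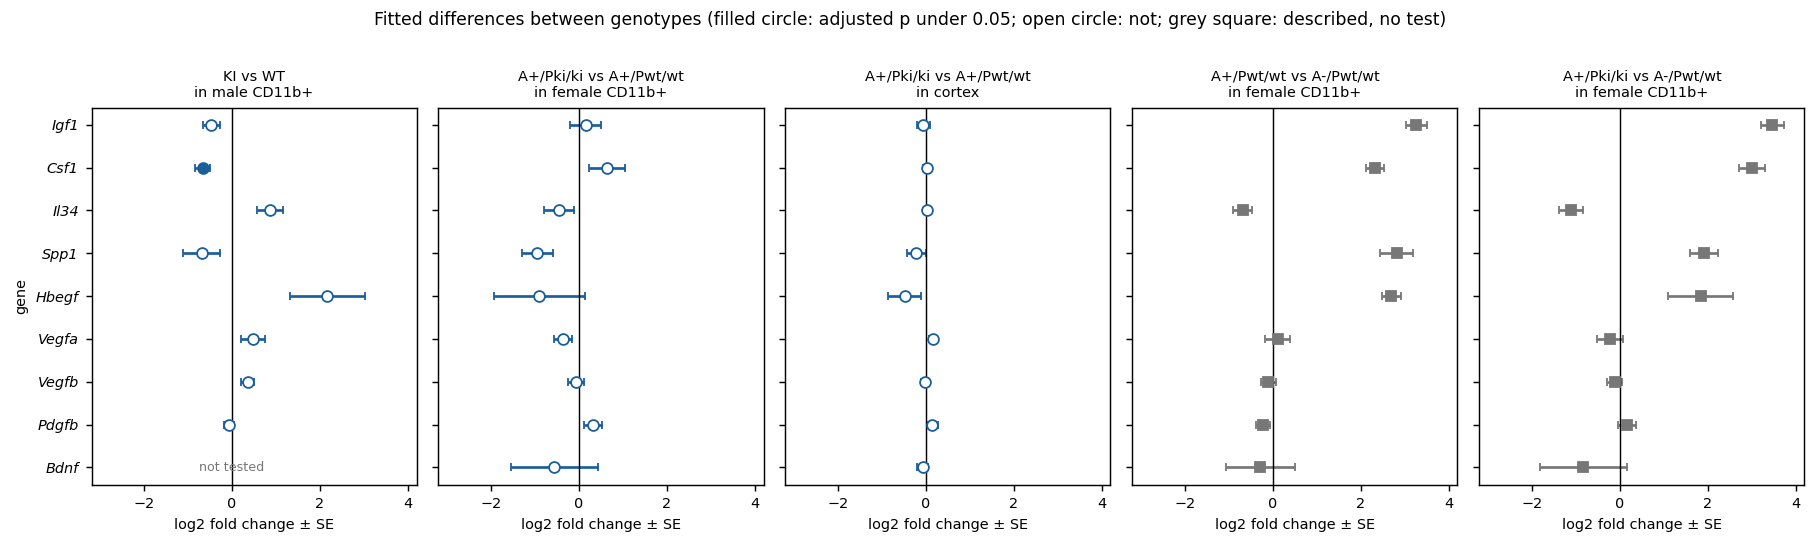
Fitted log2 fold change with its SE (horizontal axes) for each gene (vertical axis) in 5 comparisons; a filled circle marks an adjusted p under 0.05, an open circle a larger one and a grey square a value given with no test. Csf1 in males (-0.67) is the only filled circle, and Igf1, Csf1, Spp1 and Hbegf lie farthest to the right against A-.

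Markers of other cells moved with the male genotype. The neuron marker sum was 229.7 to 336.7 CPM in WT and 770.0 to 1679 CPM in KI libraries, and the oligodendrocyte marker sum was 18070 to 23220 CPM in WT and 27610 to 59380 CPM in KI libraries. The astrocyte marker sum, led by Slc1a2, was 587.7 to 757.0 CPM in WT and 904.6 to 1955 CPM in KI libraries. For endothelial and mural cells, led by Cldn5, it was 981.0 to 1370 and 1242 to 2317 CPM. The microglia marker sum was 23600 to 24210 CPM in WT and 14110 to 24760 CPM in KI libraries, with Tmem119 at a mean of 1749 and 1442 CPM, P2ry12 at 1945 and 1512 CPM and Cx3cr1 at 4078 and 2941 CPM. The part of these shifts in the Csf1 and Il34 values was not tested. KI mouse 104 had the highest microglia marker sum and mouse 139 the highest neuron marker sum of the males.

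In the females the same sums spread widely within the A+/Pki/ki group. Oligodendrocyte markers stood at 6659 CPM in mouse 394, 6797 CPM in mouse 405, 27320 CPM in mouse 244 and 64560 CPM in mouse 335. Mice 394 and 405, which were alike in this sum and in microglia markers (20920 and 21080 CPM), had Hbegf at 128.3 and 3.86 CPM. Their neuron marker sums were 322.1 and 193.3 CPM and their astrocyte marker sums 604.0 and 420.6 CPM. The part of cell composition in the Hbegf values was not tested. Border macrophage markers, led by Mrc1, summed to 265.6 to 652.7 CPM in A-, 192.8 to 239.8 CPM in A+/Pwt/wt and 190.5 to 311.7 CPM in A+/Pki/ki microglia. Neutrophil markers, led mostly by S100a9, summed to 83.1 to 661.8, 48.4 to 142.6 and 38.5 to 1806 CPM. The highest neutrophil sum was in mouse 335, which had the lowest Igf1 (48.6 CPM) and Csf1 (197.3 CPM) values of the A+/Pki/ki group.

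**Figure D4:**
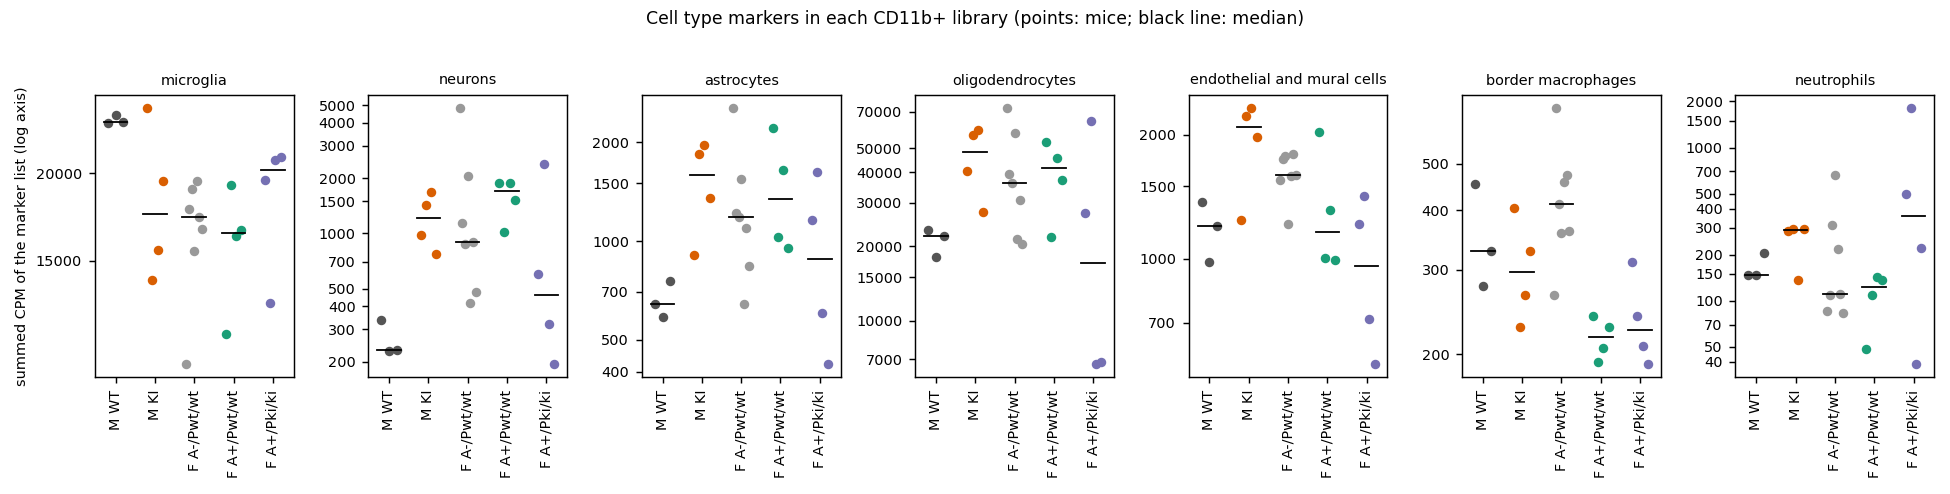
Summed CPM (vertical log axes) of 7 cell type marker lists in each CD11b+ library, by group (horizontal axis), with 1 point per mouse and a black line at the median. Neuron, astrocyte and oligodendrocyte sums lie higher in every male KI library than in every WT library, and the A+/Pki/ki libraries spread from 6659 to 64560 CPM of oligodendrocyte markers.

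The difference between the KI effect in males and in A+ females was tested in 1 fit of the 15 libraries. None of 17619 genes was called by edgeR (0.0%), with 4664 at an unadjusted p under 0.05 and 1185 called by DESeq2. The smallest adjusted p-values of the members were 0.143 for Il34 (1.35 on the log2 scale, SE 0.49) and 0.15 for Csf1 (-1.28, SE 0.50). Hbegf differed by 3.08 with an SE of 1.515 (adjusted p = 0.205), which became 1.46 without male KI mouse 139 and 5.54 without female A+/Pki/ki mouse 394. Sex, the transgenes and the column tag all separate these pairs and cannot be told apart. Without A+/Pki/ki mouse 335, 6199 genes were called in all, against 0 of 17619 with all 15 libraries. Csf1, Il34, Pdgfb and Bdnf were among them, so calls of members moved with those of all genes.

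Receptors and relatives of the 9 factors were followed as 88 genes in 8 lists. In male KI against WT microglia, 12 of the 69 tested were called higher and 5 lower (17.4% and 7.25%, against 11.1% and 5.26% of all genes). The median log2 fold change was 0.28, against 0.00 over all genes. Without 1 WT library the count of 17 became 6 (mouse 101), 4 (102) or 5 (94), in fits that called 1236, 894 and 1111 genes in all. Without 1 KI library it became 39 (mouse 104), 7 (136), 6 (139) or 13 (84), in fits that called 5439, 1771, 1353 and 2559 genes. The count of partner genes thus moved with the count of all genes.

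Of the receptors of HB-EGF, Egfr was at 5.61 CPM in KI and 2.74 CPM in WT (log2 fold change 1.03, SE 0.28, adjusted p = 0.0354) and Erbb4 at 9.20 and 4.58 CPM (1.01, SE 0.28, adjusted p = 0.0396). Both calls were lost without any 1 of the mice 101, 102, 94, 136, 139 and 84 (adjusted p 0.053 to 0.128), and held without mouse 104. Of the 12 tested genes of the EGF list, edgeR called 3 higher and none lower. Among CSF1 and IL34 receptors, Ptprz1, a receptor of IL34 made by astrocytes and oligodendrocyte precursors, rose by 1.39 on the log2 scale. Csf1r was at 5719 CPM in KI and 7742 CPM in WT microglia, without a call by edgeR (adjusted p = 0.205), whereas DESeq2 called it lower (adjusted p = 0.0463). The related receptors Csf2rb, Csf3r and Csf2ra, which myeloid cells use for GM-CSF and G-CSF, fell by 0.70, 0.68 and 0.52 on the log2 scale. Each of these 3 calls was lost without any 1 WT mouse, that of Csf3r also without KI mouse 136, 139 or 84 and that of Csf2ra also without 139 or 84 (adjusted p 0.0534 to 0.143).

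The osteopontin list gave 1 rise and 2 falls among 10 tested genes. Itgb3 and Itga9, integrin chains that bind osteopontin, fell by 0.48 and 0.39, and Dmp1, a relative of Spp1, rose from 1.94 to 5.49 CPM. The Itgb3 call was lost without any 1 WT mouse (adjusted p 0.117 to 0.135). The Itga9 call was lost without the low-count filter (adjusted p = 0.111) and without any 1 of the males except mouse 104 (adjusted p 0.0584 to 0.195). Cd44, the other main receptor, was at 6.41 and 9.78 CPM (adjusted p = 0.0876) and Itgav at 95.1 and 117.3 CPM (adjusted p = 0.0871). The TRKB gene Ntrk2 rose from 91.3 to 203.2 CPM (log2 fold change 1.15, SE 0.32, adjusted p = 0.0369), as did the sorting receptor gene Sorcs2 (1.43). The Ntrk2 call was lost without mouse 101, 102, 94, 136 or 139 (adjusted p 0.0739 to 0.118) and the Sorcs2 call without 101, 102, 136 or 139 (adjusted p 0.058 to 0.0896). Of the other secreted factors, Mdk rose by 1.37 and Fgf1 by 1.03, the latter without a call when WT mouse 102 was left out (adjusted p = 0.0651). The calls of Mdk, Dmp1 and Ptprz1 held in each setting run and without any 1 male. Grn, the progranulin gene, was not called (adjusted p = 0.397).

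By edgeR with the low-count filter, no gene of the VEGF or PDGF lists was called in males, though other settings called some. Flt1 and Kdr, the endothelial VEGF receptors, were at 661.0 and 99.6 CPM in KI against 435.3 and 59.1 CPM in WT (adjusted p = 0.202 and 0.0875). Nrp1 was at 94.5 and 106.6 CPM and Pdgfrb at 75.9 and 43.2 CPM (adjusted p = 0.414 and 0.0914). DESeq2 called Kdr (adjusted p = 0.0381) and Pdgfrb (adjusted p = 0.0377) higher, and without the low-count filter Flt1 (0.0373), Kdr (0.00227) and Pdgfrb (0.00173) were called higher. In the IGF list Igf1r, at 111.0 and 88.1 CPM, Irs2, at 34.3 and 44.0 CPM, and Igfbp5, at 47.4 and 24.3 CPM, were not called by edgeR, and its 1 call was a rise of Igfbp7, named after its values were seen. Igfbp5 was called higher by DESeq2 (adjusted p = 0.0235) and without the low-count filter (adjusted p = 0.000726). Without KI mouse 104, Igf1r, Igfbp5, Flt1, Kdr and Pdgfrb were called higher and Csf1r, Itgav and Grn lower, and without KI mouse 84 Irs2 was called lower (adjusted p 0.00287 to 0.0499). The neuron, astrocyte and oligodendrocyte marker sums were higher in every KI library, whereas the endothelial and mural sum overlapped (1242 CPM in KI mouse 104 against up to 1370 CPM in WT). The part of these sums in the calls was not tested.

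**Figure D5:**
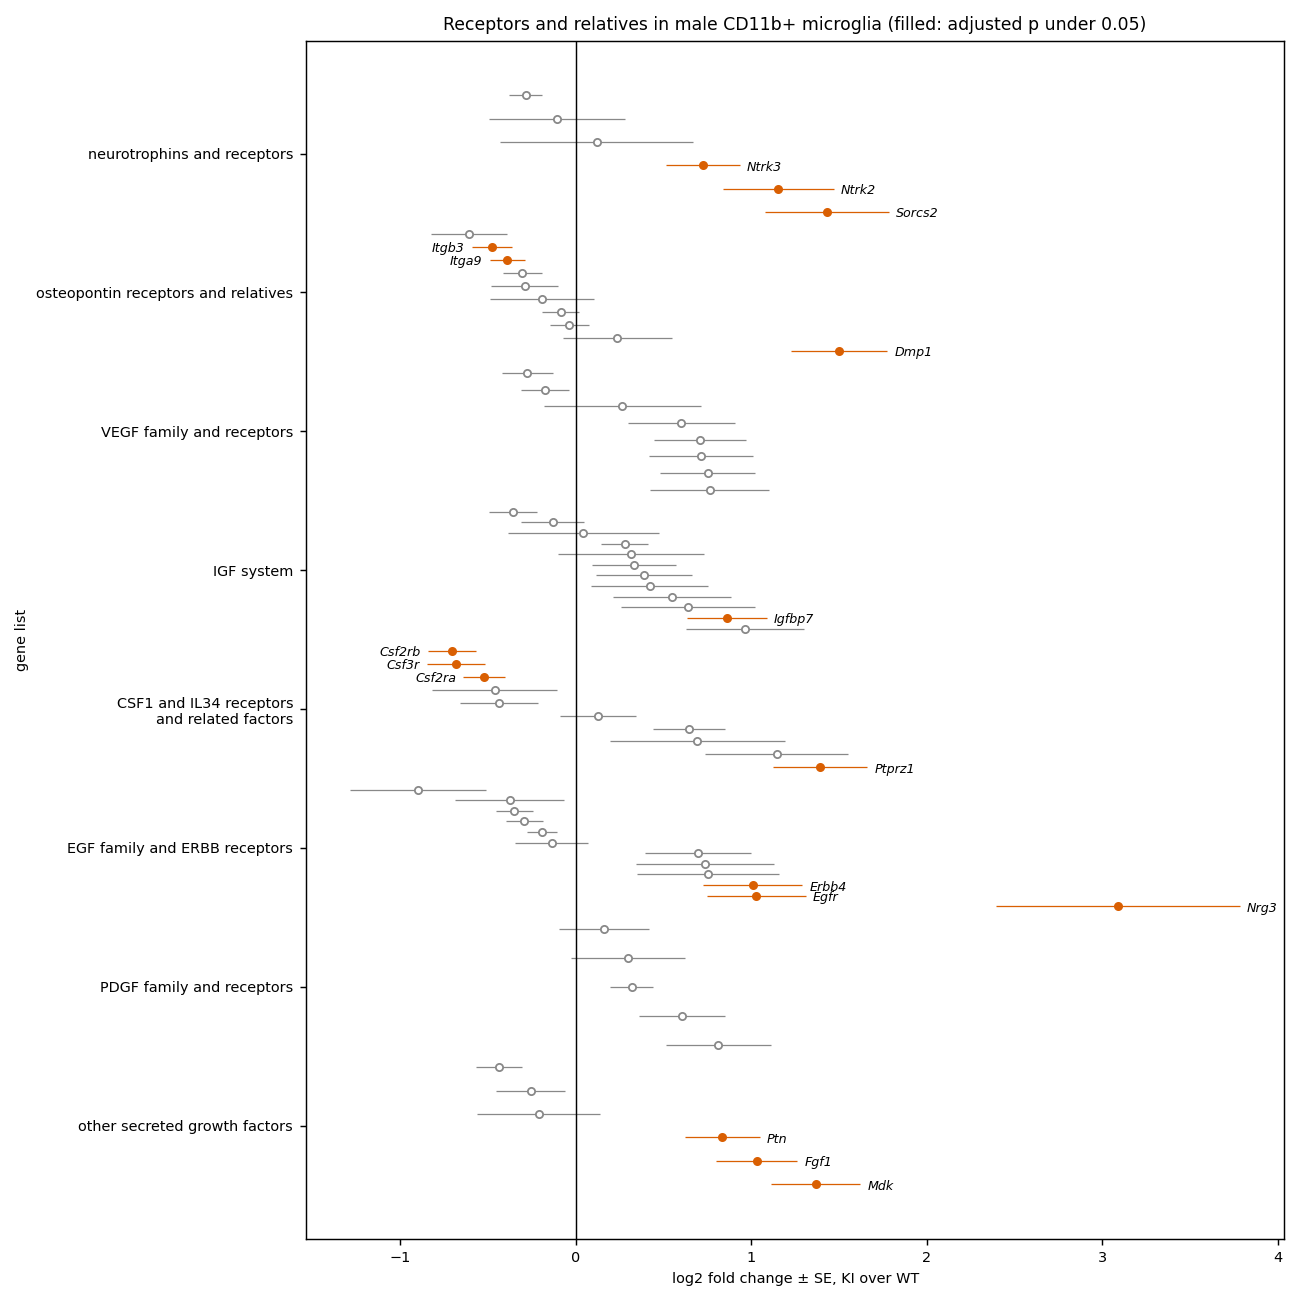
Log2 fold change with its SE of KI over WT (horizontal axis) for the 69 tested receptors and relatives, grouped by gene list (vertical axis), in male CD11b+ libraries; filled points are called and named. Of them 12 lie to the right of 0 and 5 to the left.

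Receptors and relatives were next compared between A+ and A- CD11b+ cells. In A+/Pwt/wt against A- females 0 of 71 tested partner genes were called, with 11 at an unadjusted p under 0.05, against 1.29% of all genes called. DESeq2 called 3, among 636 genes in all. The edgeR count was 4 without A+ mouse 331, 3 without A- mouse 223 and 1 without A- mouse 242, in fits that called 274, 497 and 171 genes in all. Igf1r was at 97.4 and 90.1 CPM (log2 fold change 0.11, SE 0.20) and Csf1r at 4617 and 5203 CPM (-0.17, SE 0.22). Egfr was at 4.79 and 4.25 CPM, Cd44 at 11.3 and 11.4 CPM and Itgav at 85.0 and 100.6 CPM. Igfbp5, an IGF binding protein, was at 59.3 and 34.9 CPM (0.77, SE 0.27, adjusted p = 0.273).

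Between A+/Pki/ki and A- females 1 of 71 was called (1.41%, against 1.64% of all genes). Cd9, a tetraspanin that associates with membrane-bound HB-EGF, rose from 368.4 to 778.6 CPM (log2 fold change 1.08, SE 0.21, adjusted p = 0.0287). In the separate fit of A+/Pwt/wt against A-, Cd9 was at 682.8 CPM against 366.1 CPM (0.90, SE 0.21, adjusted p = 0.0704). The call in A+/Pki/ki mice was lost without A- mouse 224, 243 or 245 or A+/Pki/ki mouse 244, 394 or 405, and without A+/Pki/ki mouse 335 the count of partner calls was 12, among 1097 genes in all. DESeq2 called 10 partner genes, among 956 genes in all. Of the fixed receptors and relatives it called Pdgfrb lower (log2 fold change -0.86, adjusted p = 0.0394) and Grn higher (0.57, adjusted p = 0.0458), neither of which edgeR called (adjusted p = 0.129 and 0.198). The endothelial and mural marker sum was 1217 to 1795 CPM in A- libraries (median 1597). In A+/Pki/ki libraries it was 555.0 to 1421 CPM (median 962.9), and its part in the Pdgfrb value was not tested. Between A+/Pki/ki and A+/Pwt/wt mice, edgeR called no partner gene in CD11b+ cells (70 tested, 1 at an unadjusted p under 0.05) or cortex (77 tested, 1 at an unadjusted p under 0.05). DESeq2 called 0 in either.

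Genes whose log2 CPM moved most like each of 4 members across the 22 CD11b+ libraries, after the mean of each of the 5 groups was taken off, are given as a description. The points share library depth and cell composition. For Igf1 these were Nlrp3 (r = 0.912), Fchsd2 (0.901) and Usp2 (0.896). For Csf1 they were Pfkfb3 (r = 0.936), Tgif1 (0.924) and Dyrk2 (0.908), and for Spp1 Lilra5 (r = 0.857), Cyb5r1 (0.852) and Chst12 (0.846). Hbegf had weaker matches, Pim3 (r = 0.733), Btg3 (0.727) and Plppr3 (0.701). Over the 15 female libraries alone the r of the first of each was 0.921 for Nlrp3, 0.954 for Pfkfb3, 0.893 for Lilra5 and 0.798 for Pim3. Of these only Pfkfb3 was still the closest gene. The closest over the females was Eepd1 for Igf1 (0.955), Dtymk for Spp1 (0.904) and Pim2 for Hbegf (0.865). Btg3 was then at 0.687 with Hbegf.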

How the data were processed

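RNA-seq of CD11b+ cells and cortex was analysed from 3 tables of raw gene counts that the authors deposited. Per the study's methods and processing notes, the authors trimmed reads (Trimmomatic 0.39, checked with FastQC 0.11.7), aligned them to GRCm38 with STAR 2.7.9a and counted uniquely mapped primary alignments without strand over Gencode M25 genes with featureCounts 2.12.0. Deposited variance-stabilised tables were not used. Unstranded counting cannot separate overlapping genes on opposite strands.

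Samples were grouped by their labels. CPM were scaled by TMM within each table. Levels of receptors and relatives given with a comparison are those of its fit, so a group's level varies slightly between comparisons. Levels between genes were divided by merged exon length (Gencode M21). Genes reaching 10 counts in 3 or more of the fitted libraries were tested with edgeR 4.0.16 (R 4.3.3), quasi-likelihood, two-sided, Benjamini-Hochberg adjusted over all genes, and called at 0.05. Each fit held only the groups compared, without covariates. Alternatives were DESeq2 size factors, no low-count filter, the DESeq2 1.42.0 Wald test, all groups of a table, and leaving out each library. The fits, except that of the difference between males and A+ females, were also run on simulated counts. That run checked only that the median of the fold changes put in was recovered, and set no limit on false calls.

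The members and gene lists were chosen with earlier results of these data known. Named were the 9 members, 14 fixed receptors and relatives, called partner genes (at most 6 rises and 6 falls by size, at 5 CPM or more), 3 genes most like each of 4 members, Plcg2, App and leading markers. Likeness used Pearson's r of log2 CPM (prior count 2). The closest genes over the female libraries alone were also named.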

Additional observations from a re-analysis of the deposited data

Results flagged for a closer look

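A value was picked out where the highest or lowest mouse of a group stood apart from the others by Dixon's criterion. Chance picks about 1 in 20 groups, and 54 were tested, of which 5 were picked.

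Hbegf was at 105.4 CPM in male KI mouse 139, against 9.83 to 12.3 CPM in the other KI males, and at 128.3 CPM in female A+/Pki/ki mouse 394, against 3.86 to 10.1 CPM in the others of that group. KI mouse 136 had a microglia marker sum of 14110 CPM, near the 15520 CPM of mouse 139, and Hbegf at 12.3 CPM. The cause of the high Hbegf values was not tested. Csf1 was lowest in the same male mouse 139, at 30.07 CPM against 41.5 to 42.7 CPM in the other KI males. In A+/Pki/ki cortex, Vegfa was at 78.47 CPM in mouse 216 and at 61.1 to 63.3 CPM in the other mice. Bdnf was at 1.045 CPM in female A+/Pki/ki mouse 335, on 22 counts, and at 0.0358 to 0.174 CPM in the others, and that library also had the highest neuron marker sum of its group (2400 CPM).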

How the results depend on the processing

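Csf1 in males kept its direction in every setting run and its call with all 7 males (adjusted p 0.00442 to 0.0303 in other settings). The male count of called genes was 894 to 5439 without 1 library, of members 0 to 6 and of partner genes 4 to 39. Members called in males were 3 without the low-count filter and 2 by DESeq2, and partner genes 26 and 27. Without KI mouse 84 the 1 member called was Vegfb, not Csf1. DESeq2 called 3719 genes in males, 2417 higher and 1302 lower, against 2685 by edgeR.

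In A+/Pki/ki against A+/Pwt/wt, DESeq2 called 7 genes in CD11b+ cells and 11 in cortex, and 40 were called in cortex without the low-count filter. Without 1 library 0 to 1 and 0 to 2 genes were called. In A+/Pwt/wt against A-, DESeq2 called 636 genes (371 higher, 265 lower) and 3 partner genes, and 1 partner gene was called with DESeq2 size factors or without the low-count filter. Without 1 library, 91 to 497 genes and 0 to 4 partner genes were called. In A+/Pki/ki against A-, DESeq2 called 956 genes (607 higher, 349 lower) and 10 partner genes, and the fit of all groups called 510 and 2. Without 1 library the counts were 57 to 1097 and 0 to 12. For the difference between males and A+ females, DESeq2 called 1185 genes and 9 partner genes, and without 1 library 0 to 6199 genes, 0 to 4 members and 0 to 37 partner genes were called, the highest each without mouse 335.

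Against A-, without 1 library the log2 fold change in A+/Pwt/wt ran from -0.01 to 0.27 for Vegfa and from -0.64 to 0.03 for Bdnf, and in A+/Pki/ki from -0.64 to 2.22 for Hbegf and from -0.06 to 0.29 for Pdgfb, both lowest without mouse 394, and from -2.68 to -0.44 for Bdnf, lowest without mouse 335. The cause of these changes was not tested. No paired analysis was possible because the groups compared share no replicate numbers. Bdnf values in CD11b+ cells rested on only 0 to 22 counts per library.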
